A study of Mus musculus with 24 samples.

Results

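The genes described here are 6 markers of lymphatic endothelium: Prox1, Flt4, Lyve1, Reln, Mmrn1 and Pdpn. The set is defined by gene names and was drawn up with earlier results of these data known, and every array feature (probe set) that named only one of them was taken, which gave 10 of the 45141 probe sets and 6 of the 17097 genes named. All 6 genes passed a filter on dim values, and 9 of their 10 probe sets did. Messenger RNA had been measured on 24 mouse expression arrays in stromal cells labelled as the neural fraction, from orthotopic xenografts of the human oral carcinoma line SCC25 in NSG mice, an immunodeficient strain without mature lymphocytes. The tumour cells carried the hairpin shEGR2_40.9 or shEGR2_38.9 against EGR2, the hairpin shGAL against GAL, or the non-targeting PLKO. With each of the 4 hairpins the mice received the PA-rich diet, rich in palmitic acid, or the control diet, and each of the 8 groups had 3 arrays.

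All groups share the 1 tumour line, the host strain and a hairpin construct, and no age is given in the sources used here. The hairpins were in the human tumour cells, so every mouse transcript measured came from host cells that did not carry them, as far as the labels say. EGR2 is a transcription factor and GAL encodes the neuropeptide galanin. The series calls the 3 arrays of a group technical replicates and does not say how many animals they came from, so each p-value measures only the spread between these arrays. The authors' RMA values are on the log2 scale, where a difference of 1 is a doubling. Array medians lay between 6.71 and 6.81. Of 10 markers of Schwann cells and glia in the labelled neural fraction, 5 lay above the filter level of 6.27 (Erbb3, Mbp, Ngfr, Pmp22, Sox10), 2 lay below it (Foxd3, S100b) and 3 had no probe set naming them alone. Of 10 neuron markers, 4 lay above it and 6 below, among them Snap25, Nefl and Nefm. Genes of basal keratinocytes had 7 of 8 members above it, with means over all arrays of 13.18 for Krt14 and 12.91 for Krt5. Binding of human tumour RNA to these mouse probe sets was not tested. One control-diet array of shEGR2_38.9, replicate 3, differed from all others. Its mean was 7.09, against 7.15 to 7.17 on the other 23, and its 3′ Gapdh control probe sets exceeded the 5′ ones by 0.76, against -0.12 to 0.08. The diet effects of Prox1, Flt4, Lyve1, Reln and Mmrn1 with that hairpin are given with and without it. So are the control-diet differences of the 6 genes from PLKO with that hairpin. Other values that rest on this array, those of the gene lists among them, include it unless said otherwise.

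Lymphatic endothelial cells line the vessels that drain tissue fluid, and in many tumours these vessels are a route to lymph nodes. The homeobox factor PROX1 sets and keeps their identity, and VEGFR-3, the product of Flt4, receives the growth signal of VEGF-C and VEGF-D. LYVE1 binds hyaluronan and is found on lymphatic capillaries and on some macrophages. Reln encodes reelin, a secreted glycoprotein better known from migrating neurons, Mmrn1 encodes multimerin 1, a secreted protein also stored in platelets, and Pdpn encodes podoplanin, a mucin-type glycoprotein that binds CLEC-2 on platelets and is also found on fibroblasts and keratinocytes. In bulk RNA such as this, fewer cells of a type and less RNA per cell cannot be told apart.

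In the RefSeq annotation of GRCm38.p6 the genes lie on 6 chromosomes, with Prox1 at chr1:190118035-190170827, Flt4 at chr11:49609679-49652739, Lyve1 at chr7:110850607-110862953, Reln at chr5:21884454-22344705, Mmrn1 at chr6:60944317-60989378 and Pdpn at chr4:143267409-143299564. The 250 bases before the annotated start of Prox1, Flt4, Reln and Mmrn1 are printed. Together with Lyve1 these genes moved alike across the arrays, as the values below show. Whether their promoters bear on that was not tested. The bases were taken from RefSeq, GRCm38.p6, and are written 5′ to 3′ on the gene's strand. Capitals mark a match to a TATA box in Prox1 and a pair of overlapping matches to an EGR motif in Reln.
Prox1 (chr1:190170828-190171077, - strand): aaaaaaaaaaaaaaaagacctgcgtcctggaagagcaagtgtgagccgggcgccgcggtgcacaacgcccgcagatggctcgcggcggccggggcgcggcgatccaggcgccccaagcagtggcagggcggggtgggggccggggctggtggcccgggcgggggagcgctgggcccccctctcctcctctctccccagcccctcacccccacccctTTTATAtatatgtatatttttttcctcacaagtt
Flt4 (chr11:49609429-49609678, + strand): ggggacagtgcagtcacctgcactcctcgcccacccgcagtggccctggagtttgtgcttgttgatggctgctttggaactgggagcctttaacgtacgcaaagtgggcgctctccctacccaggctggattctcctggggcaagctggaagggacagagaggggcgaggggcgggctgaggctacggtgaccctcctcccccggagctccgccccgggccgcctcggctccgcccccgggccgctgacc
Reln (chr5:22344706-22344955, - strand): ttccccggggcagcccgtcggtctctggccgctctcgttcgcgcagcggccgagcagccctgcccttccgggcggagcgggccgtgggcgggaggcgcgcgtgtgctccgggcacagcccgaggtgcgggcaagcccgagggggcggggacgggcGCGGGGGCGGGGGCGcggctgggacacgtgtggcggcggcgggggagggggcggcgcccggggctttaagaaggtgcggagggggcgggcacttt
Mmrn1 (chr6:60944067-60944316, + strand): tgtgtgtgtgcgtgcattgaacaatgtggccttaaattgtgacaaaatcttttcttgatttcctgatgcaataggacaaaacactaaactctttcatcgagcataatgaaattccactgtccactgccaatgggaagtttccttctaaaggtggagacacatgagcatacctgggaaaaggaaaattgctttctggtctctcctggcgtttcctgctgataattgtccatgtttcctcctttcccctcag

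Windows of 300 bases, from 250 before the start to 50 after it, were found for 5 of the 6 genes, all but Lyve1, with a second window for Prox1. Their GC content ran from 44.3% in Mmrn1 and 48.7% in Pdpn to 64.3% in the Prox1 window that holds the bases printed, 70.3% in Flt4 and 80.7% in Reln, where the median of all 32851 windows was 52.7%. The search covered both strands for 5 motifs: GCGNGGGCG for EGR factors, CAGGAAG for ETS factors, ACAATGG for SOX factors, AGATAAG for GATA factors and TATAAA for the TATA box. The Reln window held the EGR letters at -95 and at -89 from the start, overlapping each other, and 5.55% of all windows held that motif. The Prox1 window held the TATA letters on the other strand at -34, and 13.62% of all windows did. None of the ETS, SOX or GATA letters, held by 13.27%, 3.66% and 3.04% of all windows, was in a window of these genes. A match is a run of letters and does not show a binding site.

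Across the 8 groups, 5 of the 6 genes followed one order at the top, and Pdpn did not. For each of the 6, the highest group mean was that of shEGR2_38.9 on the control diet, and for all but Pdpn the next was that of shEGR2_40.9 on the control diet. Between the lowest and the highest group mean lay 8.93-fold for Prox1, 8.8-fold for Reln, 7.06-fold for Flt4, 5.53-fold for Mmrn1, 2.59-fold for Lyve1 and 1.59-fold for Pdpn. The arrays of the top pair of groups overlapped for Prox1 and Mmrn1 and did not for Flt4, Lyve1 and Reln. Below that pair most neighbours overlapped. The lowest group was shEGR2_40.9 on the PA-rich diet for Flt4, Reln and Mmrn1, shGAL on the control diet for Prox1 and Lyve1, and PLKO on the PA-rich diet for Pdpn.

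**Figure D1:**
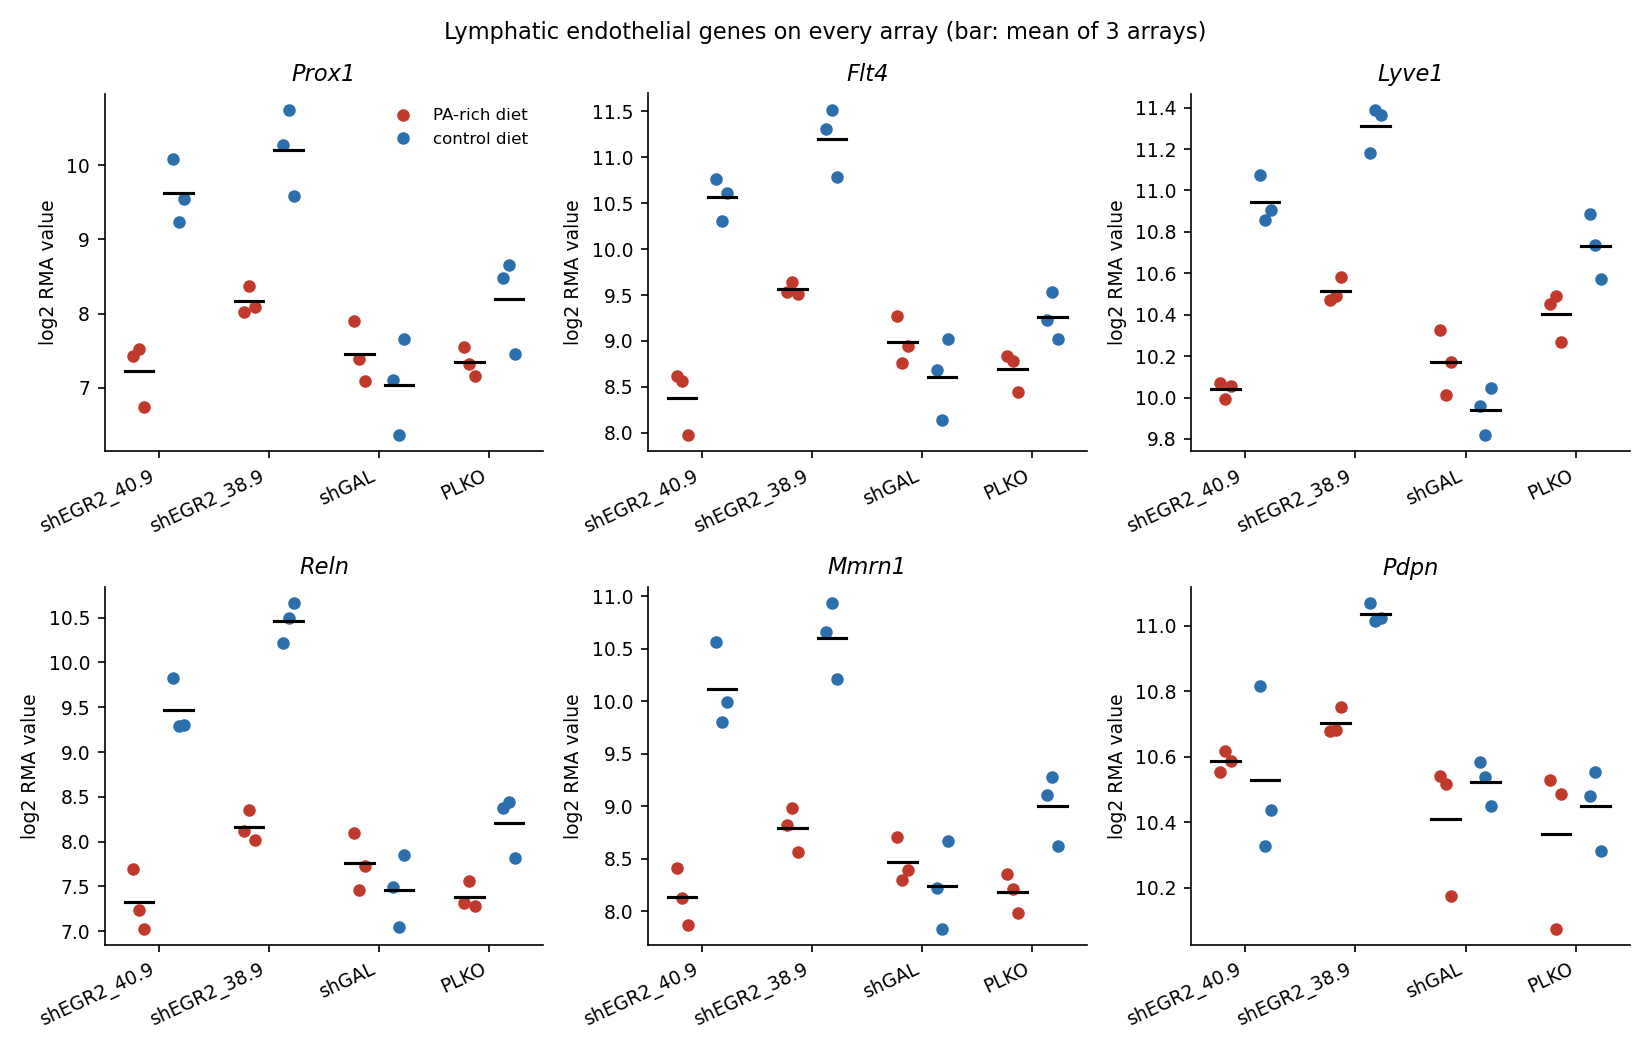
Log2 RMA value (vertical axes) of each of the 6 genes on each of the 24 arrays, by hairpin (horizontal axes) and diet; each point is 1 array and each bar the mean of 3. With both EGR2 hairpins the PA-rich arrays lie below the control-diet arrays for every gene but Pdpn with shEGR2_40.9, and with shGAL the diets overlap for all 6.

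The diet was compared first, within each hairpin. With shEGR2_40.9, Prox1, Flt4, Lyve1, Reln and Mmrn1 fell on the PA-rich diet, and with shEGR2_38.9 those 5 and Pdpn fell, the call of Pdpn being lost in 17 of 32 alternative settings. Of all genes tested, 5.22% fell with shEGR2_40.9 and 8.30% with shEGR2_38.9. With PLKO and with shGAL, 0 of the 6 genes passed, where 1.18% and 1.94% of all genes did (limma; at an unadjusted p under 0.05, 5 of the 6 with PLKO and 1, Lyve1, with shGAL). With PLKO the arrays of 4 genes still lay wholly lower on the PA-rich diet, as did those of 10.3% of all genes. With the scan batch as a block 3 of the 6 passed, and the share of all genes passing with the block is not given here.

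Prox1, the transcription factor of lymphatic identity, read 7.43, 7.52 and 6.74 on the PA-rich arrays of shEGR2_40.9, against 10.09, 9.24 and 9.54 on its control-diet arrays. With shEGR2_38.9 it read 8.02, 8.38 and 8.10 on the PA-rich diet, against 10.27, 10.75 and 9.58 on the control diet. Every PA-rich array lay more than 1 log2 unit below every control-diet array of the same hairpin. Prox1 fell by 2.39 with shEGR2_40.9, which is 5.25-fold (SE 0.33, limma adjusted p = 4.15e-05). With shEGR2_38.9 the log2 change was -2.04 (SE 0.33, limma adjusted p = 8.63e-05), and it was -2.35 without the array that stood apart. With shGAL the readings were 7.90, 7.39 and 7.09 on the PA-rich diet, against 7.11, 6.36 and 7.65 on the control diet, and these overlapped. With PLKO they were 7.56, 7.32 and 7.16 on the PA-rich diet, against 8.48, 8.66 and 7.45 on the control diet, where the low control-diet replicate 3 reached into the range of the PA-rich arrays. The log2 change was 0.42 with a 95% interval of -0.27 to 1.11 (limma adjusted p = 0.577) with shGAL and -0.85 with a 95% interval of -1.54 to -0.16 (limma adjusted p = 0.303) with PLKO.

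Flt4, which encodes the VEGF-C receptor, showed the same pattern with narrower spread. Its PA-rich arrays read 8.61, 8.56 and 7.98 with shEGR2_40.9, against 10.77, 10.31 and 10.61 on the control diet. For shEGR2_38.9 the readings were 9.54, 9.64 and 9.51 on the PA-rich diet, against 11.31, 11.52 and 10.78 on the control diet. The diets were again fully apart with either hairpin. The log2 change was -2.18 (SE 0.21, limma adjusted p = 5.17e-07) with shEGR2_40.9, 4.53-fold lower on the PA-rich diet, and -1.64 (SE 0.21, limma adjusted p = 4.73e-06) with shEGR2_38.9, or -1.85 without the array that stood apart. With shGAL Flt4 read 9.27, 8.76 and 8.95 on the PA-rich diet, against 8.68, 8.14 and 9.02 on the control diet. With PLKO it read 8.83, 8.79 and 8.45 on the PA-rich diet, against 9.23, 9.53 and 9.02 on the control diet. The diets overlapped with shGAL and did not with PLKO, although neither difference passed the threshold: it was 0.38 with a 95% interval of -0.06 to 0.82 (limma adjusted p = 0.394) with shGAL and -0.57 with a 95% interval of -1.01 to -0.13 (limma adjusted p = 0.262) with PLKO.

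Lyve1, which encodes a hyaluronan receptor, moved over a smaller range than Prox1 and Flt4. It read 10.07, 9.99 and 10.06 on the PA-rich diet with shEGR2_40.9, against 11.08, 10.86 and 10.90 on the control diet. With shEGR2_38.9 the PA-rich arrays held 10.47, 10.49 and 10.58, against 11.18, 11.39 and 11.37 on the control diet. Within each of these groups the 3 arrays differed by at most 0.22, less than the step between diets. Lyve1 changed by -0.90 (SE 0.09, limma adjusted p = 1.16e-06) with shEGR2_40.9 and by -0.80 (SE 0.09, limma adjusted p = 1.32e-06) with shEGR2_38.9 (-0.77 without the array that stood apart). With shGAL the values were 10.33, 10.01 and 10.17 on the PA-rich diet, against 9.96, 9.82 and 10.05 on the control diet. With PLKO they were 10.45, 10.49 and 10.27 on the PA-rich diet, against 10.88, 10.74 and 10.57 on the control diet, lower on all 3 PA-rich arrays. The difference was 0.23 with a 95% interval of 0.03 to 0.42 (limma adjusted p = 0.225) with shGAL and -0.33 with a 95% interval of -0.52 to -0.13 (limma adjusted p = 0.101) with PLKO, and the PLKO value passed with the scan batch as a block (limma adjusted p = 0.0496). Over the 32 alternative settings the PLKO value ran from -0.52 to -0.25. It passed in 2 of them, with a lowest adjusted p of 0.0167 (limma).

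Reln, the gene of the secreted glycoprotein reelin, gave 7.70, 7.24 and 7.03 on the PA-rich diet with shEGR2_40.9, against 9.82, 9.29 and 9.30 on the control diet. With shEGR2_38.9 it gave 8.11, 8.35 and 8.02 on the PA-rich diet, against 10.22, 10.49 and 10.66 on the control diet. With that hairpin its log2 change was -2.30 (SE 0.21, limma adjusted p = 4.86e-08), a fall of 4.91-fold and the deepest of the 6 over all arrays, and it was -2.19 without the array that stood apart, where Prox1 fell further. With shEGR2_40.9 the log2 change was -2.15 (SE 0.21, limma adjusted p = 5.46e-07). With shGAL Reln gave 8.10, 7.46 and 7.72 on the PA-rich diet, against 7.49, 7.05 and 7.85 on the control diet, which overlap. With PLKO it gave 7.31, 7.56 and 7.28 on the PA-rich diet, against 8.37, 8.45 and 7.82 on the control diet, with all PA-rich arrays lower. The differences were 0.30 with a 95% interval of -0.14 to 0.73 (limma adjusted p = 0.519) with shGAL and -0.83 with a 95% interval of -1.26 to -0.39 (limma adjusted p = 0.0546) with PLKO. The PLKO difference passed with the scan batch as a block (limma adjusted p = 0.0197), without PLKO control-diet replicate 3 (limma adjusted p = 0.0231) and without the array that stood apart (limma adjusted p = 0.0438). It also passed without replicate 1 of shEGR2_40.9 on either diet, shGAL control-diet replicate 2 or 3, or shGAL PA-rich replicate 1.

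Mmrn1, the gene of multimerin 1, had 8.41, 8.13 and 7.87 on the PA-rich diet with shEGR2_40.9, against 10.56, 9.80 and 9.99 on the control diet. With shEGR2_38.9 it had 8.82, 8.99 and 8.57 on the PA-rich diet, against 10.66, 10.93 and 10.21 on the control diet. No PA-rich array reached the lowest control-diet array of its hairpin. The log2 change was -1.98 (SE 0.22, limma adjusted p = 2.64e-06) with shEGR2_40.9 and -1.81 (SE 0.22, limma adjusted p = 2.30e-06) with shEGR2_38.9, or -2.00 without the array that stood apart. With shGAL the values were 8.70, 8.30 and 8.40 on the PA-rich diet, against 8.22, 7.84 and 8.67 on the control diet. With PLKO they came to 8.36, 8.21 and 7.98 on the PA-rich diet, against 9.11, 9.27 and 8.62 on the control diet, again with every PA-rich array lower. The difference was 0.22 with a 95% interval of -0.23 to 0.68 (limma adjusted p = 0.667) with shGAL and -0.82 with a 95% interval of -1.28 to -0.36 (limma adjusted p = 0.0775) with PLKO. With the scan batch as a block the PLKO value passed (limma adjusted p = 0.00488), as it did without PLKO control-diet replicate 3 (limma adjusted p = 0.044) and without the array that stood apart (limma adjusted p = 0.0465).

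Pdpn, the gene of podoplanin, departed from the other 5. With shEGR2_40.9 it read 10.55, 10.62 and 10.59 on the PA-rich diet, against 10.82, 10.33 and 10.44 on the control diet, and the diets overlapped. With shEGR2_38.9 it read 10.68, 10.68 and 10.75 on the PA-rich diet, against 11.07, 11.01 and 11.03 on the control diet, which lay apart. The log2 change was 0.06 with a 95% interval of -0.19 to 0.30 (limma adjusted p = 0.846) with shEGR2_40.9 and -0.33 (SE 0.12, limma adjusted p = 0.0472) with shEGR2_38.9. That call was close to the threshold and was lost without any single array of shEGR2_38.9, with adjusted p from 0.0687 to 0.114 (limma). It was also lost with no filter on dim genes and without any one of 10 arrays of other hairpins, with adjusted p from 0.0501 to 0.0583 (limma). With shGAL the readings were 10.54, 10.52 and 10.17 on the PA-rich diet, against 10.58, 10.54 and 10.45 on the control diet. With PLKO they were 10.53, 10.08 and 10.49 on the PA-rich diet, against 10.48, 10.55 and 10.31 on the control diet. Both overlapped, with differences of -0.11 with a 95% interval of -0.36 to 0.13 (limma adjusted p = 0.686) with shGAL and -0.08 with a 95% interval of -0.33 to 0.16 (limma adjusted p = 0.865) with PLKO.

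**Figure D2:**
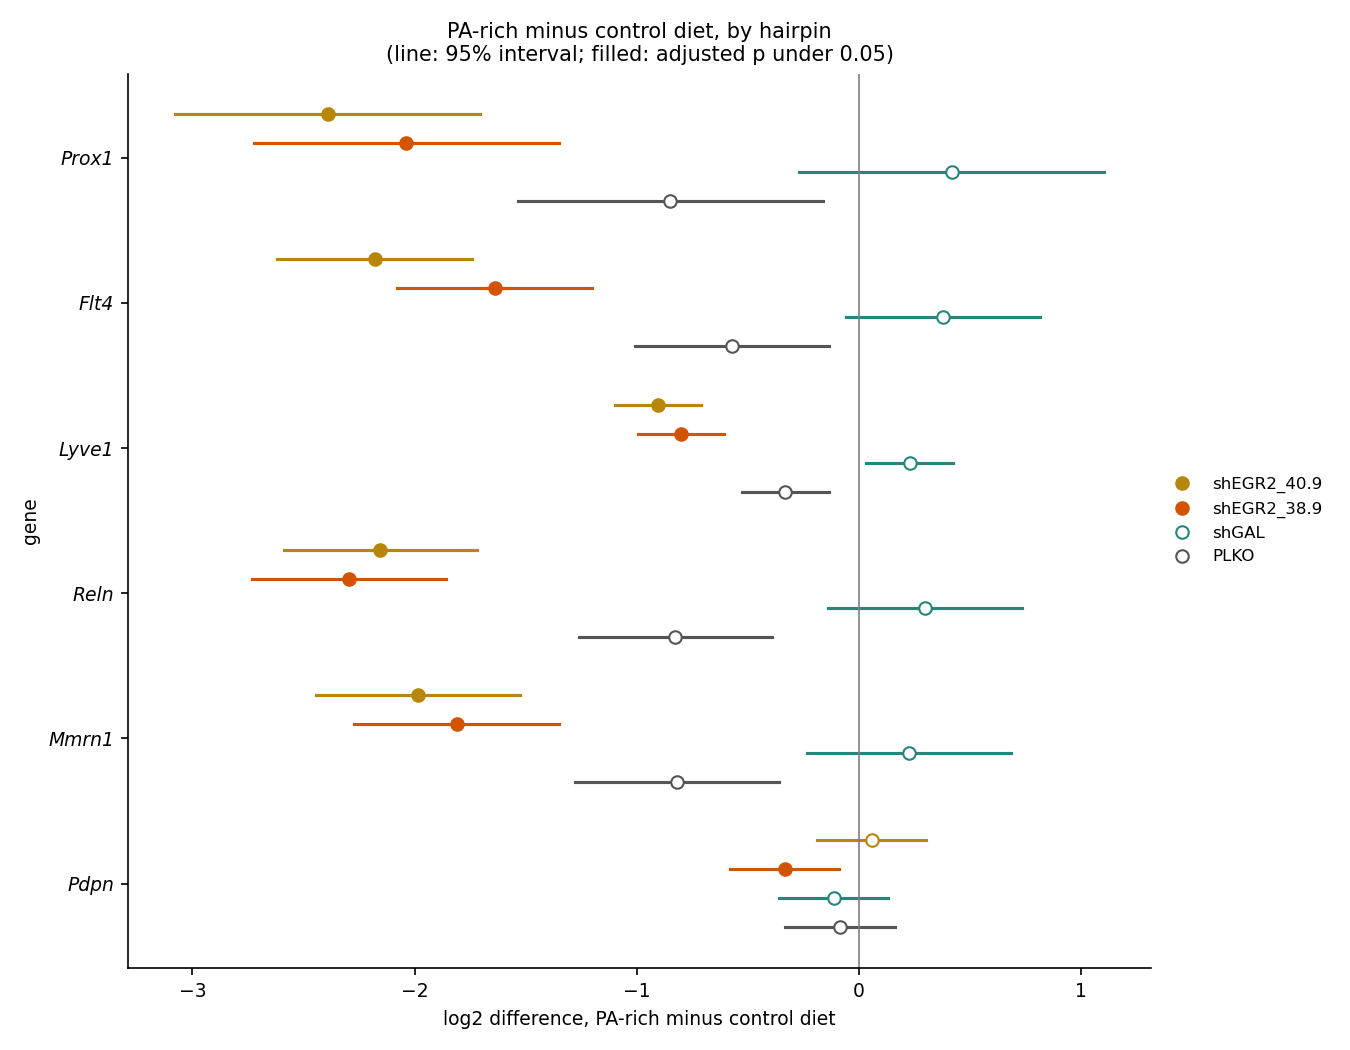
Log2 difference between the PA-rich and the control diet (horizontal axis) for each gene with each hairpin; points are limma estimates from 3 arrays a group, lines their 95% intervals, and filled points have an adjusted p under 0.05. The EGR2 hairpins give the filled points at the left for 5 genes, the PLKO points lie between them and 0, and the shGAL points lie at or above 0 for all but Pdpn.

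Each scan batch in the labels held both diets of a hairpin, so that arrays of the same replicate number form within-batch pairs. Over the 5 genes other than Pdpn, the PA-rich array was the lower one in 15 of 15 within-batch values with shEGR2_40.9 (-2.80 to -0.85), in 15 of 15 with shEGR2_38.9 (-2.64 to -0.71), in 4 of 15 with shGAL (-0.56 to 1.02) and in 15 of 15 with PLKO (-1.34 to -0.25). The 15 values of a hairpin come from only 3 pairs of arrays, which are technical replicates, and are not independent. The mean of these 5 genes per array ran from 7.93 to 8.44 on the PA-rich diet, against 9.90 to 10.46 on the control diet, with shEGR2_40.9. With shEGR2_38.9 it ran from 8.96 to 9.17, against 10.52 to 11.02. The shGAL arrays held 8.38 to 8.86 on the PA-rich diet, against 7.84 to 8.65 on the control diet, and the PLKO arrays 8.23 to 8.50, against 8.70 to 9.33. With every hairpin but shGAL the 2 diets were therefore apart in this mean.

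Whether the diet effect differed between a hairpin against EGR2 or GAL and PLKO was tested as a difference of diet effects. With shEGR2_40.9 the fall exceeded that with PLKO for Flt4, Reln, Mmrn1 and Lyve1, 4 of 6 genes, where 2.36% of all genes were lower. The difference was -1.61 (SE 0.30, limma adjusted p = 0.0031) for Flt4, -1.33 (SE 0.30, limma adjusted p = 0.012) for Reln, -1.17 (SE 0.31, limma adjusted p = 0.037) for Mmrn1 and -0.57 (SE 0.13, limma adjusted p = 0.0149) for Lyve1. For Prox1 it was -1.54 with a 95% interval of -2.51 to -0.57 (limma adjusted p = 0.0659), which passed with the scan batch as a block (limma adjusted p = 0.0293), without the array that stood apart (limma adjusted p = 0.041) and without any one of PLKO control-diet replicate 2 and shGAL control-diet replicates 2 and 3. For Pdpn it was 0.14 with a 95% interval of -0.20 to 0.49 (limma adjusted p = 0.778). Mmrn1 lost its call without any one of PLKO control-diet replicate 3, PLKO PA-rich replicates 1 and 2, shEGR2_40.9 control-diet replicates 1 and 3 and shEGR2_40.9 PA-rich replicates 2 and 3, and Lyve1 without PLKO control-diet replicate 3, where 2 genes (Flt4 and Reln) passed.

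For shEGR2_38.9 against PLKO the same 4 genes passed, where 5.52% of all genes were lower. The difference was -1.47 (SE 0.30, limma adjusted p = 0.00171) for Reln, -1.07 (SE 0.30, limma adjusted p = 0.0193) for Flt4, -0.99 (SE 0.31, limma adjusted p = 0.0375) for Mmrn1 and -0.47 (SE 0.13, limma adjusted p = 0.0207) for Lyve1. Prox1 gave -1.19 with a 95% interval of -2.16 to -0.22 (limma adjusted p = 0.0997) and passed with the scan batch as a block (limma adjusted p = 0.0475) and without the array that stood apart (limma adjusted p = 0.0393). Pdpn gave -0.25 with a 95% interval of -0.60 to 0.10 (limma adjusted p = 0.378). The count fell to 1 (Reln) without PLKO control-diet replicate 3 or PLKO PA-rich replicate 1, and to 2 without PLKO PA-rich replicate 2 or shEGR2_38.9 control-diet replicate 2. Mmrn1 also lost its call without any one of shEGR2_38.9 control-diet replicate 1 and PA-rich replicates 1 and 3. These comparisons share the PLKO arrays with each other.

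Between the 2 EGR2 hairpins, the diet effects differed past the threshold for 0 of the 6 genes, where 5.57% of all genes passed (limma; at an unadjusted p under 0.05, 1 of the 6, Pdpn). The difference, shEGR2_38.9 minus shEGR2_40.9, was 0.35 with a 95% interval of -0.62 to 1.33 (limma adjusted p = 0.746) for Prox1, 0.54 with a 95% interval of -0.08 to 1.16 (limma adjusted p = 0.354) for Flt4 and -0.14 with a 95% interval of -0.76 to 0.47 (limma adjusted p = 0.85) for Reln. For Pdpn it was -0.39 with a 95% interval of -0.74 to -0.04 (limma adjusted p = 0.205), and it passed without shEGR2_40.9 control-diet replicate 1 (limma adjusted p = 0.0397). Against shGAL, the mean diet effect of the EGR2 hairpins was lower for 5 of 6 genes, where 6.68% of all genes were, and these were the largest for the 5 among the differences of diet effects tested. They came to -2.63 (SE 0.41, limma adjusted p = 0.000112) for Prox1, -2.52 (SE 0.26, limma adjusted p = 1.22e-06) for Reln, -2.29 (SE 0.26, limma adjusted p = 3.33e-06) for Flt4, -2.12 (SE 0.27, limma adjusted p = 1.13e-05) for Mmrn1 and -1.08 (SE 0.12, limma adjusted p = 2.14e-06) for Lyve1. Pdpn gave -0.02 with a 95% interval of -0.32 to 0.28 (limma adjusted p = 0.934).

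The diet effect with shGAL exceeded that with PLKO for Lyve1 by 0.56 (SE 0.13, limma adjusted p = 0.0341), the only one of the 6 genes past the threshold, where 1.01% of all genes were higher. With the scan batch as a block, Flt4, Reln and Mmrn1 passed too, with adjusted p of 0.0483, 0.0226 and 0.00948 (limma), and all 3 passed without shGAL control-diet replicate 3. Reln passed as well without the array that stood apart (limma adjusted p = 0.0478), without PLKO control-diet replicate 3 (limma adjusted p = 0.0274) and without shGAL PA-rich replicate 2. Their differences were 0.95 for Flt4, 1.12 for Reln and 1.04 for Mmrn1, and that of Prox1 was 1.27 with a 95% interval of 0.30 to 2.24 (limma adjusted p = 0.199). Lyve1 lost its call without any one of PLKO control-diet replicates 1 and 2, PLKO PA-rich replicates 1 and 3, shGAL control-diet replicates 1 and 2 and shGAL PA-rich replicates 1 and 3, with adjusted p of up to 0.114 (limma).

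The hairpins were next set against PLKO on each diet, which asks where the levels stood apart. On the control diet 4 of the 6 genes were higher with shEGR2_40.9 and all 6 with shEGR2_38.9, and 5 were lower with shGAL, where 7.19% and 11.2% of all genes were higher and 9.84% lower. The group means of Prox1 on that diet were 9.62 ± 0.43 with shEGR2_40.9, 10.20 ± 0.59 with shEGR2_38.9 and 7.04 ± 0.65 with shGAL, against 8.19 ± 0.65 with PLKO (SD, n = 3 each). On the PA-rich diet only Lyve1 passed, with shEGR2_40.9.

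With shEGR2_40.9 on the control diet, the difference from PLKO was 1.43 (SE 0.33, limma adjusted p = 0.0055) for Prox1, 1.30 (SE 0.21, limma adjusted p = 0.000184) for Flt4, 1.26 (SE 0.21, limma adjusted p = 0.000235) for Reln and 1.12 (SE 0.22, limma adjusted p = 0.00135) for Mmrn1. Lyve1 differed by 0.21 with a 95% interval of 0.02 to 0.41 (limma adjusted p = 0.153) and Pdpn by 0.08 with a 95% interval of -0.17 to 0.33 (limma adjusted p = 0.721), neither past the threshold. Without PLKO control-diet replicate 3 the difference of Prox1 was 1.06 (limma adjusted p = 0.0545). In the 1 scan batch that these hairpins shared, with 1 array each, the 5 genes other than Pdpn differed by 0.19 to 1.61, with 5 of 5 above 0.

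With shEGR2_38.9 the differences on the control diet were larger: 2.25 (SE 0.21, limma adjusted p = 3.87e-08) for Reln, 2.01 (SE 0.33, limma adjusted p = 7.56e-05) for Prox1, 1.94 (SE 0.21, limma adjusted p = 3.82e-07) for Flt4 and 1.60 (SE 0.22, limma adjusted p = 8.98e-06) for Mmrn1. Lyve1 was higher by 0.58 (SE 0.09, limma adjusted p = 6.09e-05) and Pdpn by 0.59 (SE 0.12, limma adjusted p = 0.000635). Without the array that stood apart they were 2.15 for Reln, 2.32 for Prox1, 2.15 for Flt4, 1.80 for Mmrn1, 0.55 for Lyve1 and 0.59 for Pdpn. In the shared scan batch the 5 genes other than Pdpn differed by 0.65 to 2.09, with 5 of 5 above 0.

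With shGAL on the control diet the 5 genes were lower than with PLKO. The log2 difference was -1.15 (SE 0.33, limma adjusted p = 0.0187) for Prox1, -0.79 (SE 0.09, limma adjusted p = 5.71e-06) for Lyve1, -0.76 (SE 0.22, limma adjusted p = 0.0205) for Mmrn1, -0.75 (SE 0.21, limma adjusted p = 0.0159) for Reln and -0.65 (SE 0.21, limma adjusted p = 0.0378) for Flt4, and 0.08 with a 95% interval of -0.17 to 0.32 (limma adjusted p = 0.737) for Pdpn. These calls did not hold with the scan batch as a block, except for Lyve1 (-0.67, limma adjusted p = 0.000131). Prox1 then gave -0.81 (limma adjusted p = 0.0897), Flt4 -0.44 (limma adjusted p = 0.129), Reln -0.46 (limma adjusted p = 0.115) and Mmrn1 -0.45 (limma adjusted p = 0.0535). In the 1 shared scan batch, which held PLKO control-diet replicate 3, the 5 genes differed by -0.53 to 0.20, with 4 of 5 above 0, so the direction was not kept there except for Lyve1. Without PLKO control-diet replicate 1 or 2, or shGAL control-diet replicate 2, only Lyve1 passed, and without shGAL control-diet replicate 1, 3 genes did.

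On the PA-rich diet the hairpin groups lay closer together. Lyve1 with shEGR2_40.9 was lower than with PLKO, with a log2 difference of -0.36 (SE 0.09, limma adjusted p = 0.0283), where 1.49% of all genes were lower, and this call was lost with the scan batch as a block (limma adjusted p = 0.0561) and without any one of PLKO PA-rich replicates 1 and 2 and the 3 shEGR2_40.9 PA-rich replicates. The other differences with shEGR2_40.9 ran from -0.31 for Flt4 to 0.22 for Pdpn, and those of Prox1, Reln and Mmrn1, close to 0, changed sign with the block to 0.21, 0.17 and 0.27. With shEGR2_38.9, where 0.625% of all genes passed, the differences from PLKO were 0.87 with a 95% interval of 0.44 to 1.31 (limma adjusted p = 0.0602) for Flt4, 0.82 with a 95% interval of 0.13 to 1.51 (limma adjusted p = 0.409) for Prox1 and 0.78 with a 95% interval of 0.34 to 1.21 (limma adjusted p = 0.101) for Reln. Their intervals lie above 0 although 0 of the 6 genes passed after adjustment over all genes (limma; 5 at an unadjusted p under 0.05). The arrays of 5 of the 6 genes lay wholly above those with PLKO, as 12.4% of all genes did, and with the block Flt4 and Mmrn1 passed (limma adjusted p = 0.0343 each). Flt4 also passed without any one of shEGR2_40.9 PA-rich replicate 3, shEGR2_38.9 control-diet replicates 2 and 3 and shGAL control-diet replicates 2 and 3. With shGAL, where 12.4% of all genes passed, 0 of the 6 genes differed from PLKO past the threshold (limma; 1, Lyve1, at an unadjusted p under 0.05), with values from -0.23 for Lyve1 to 0.37 for Reln. Of these, Reln and Mmrn1 passed with the block (limma adjusted p = 0.0279 and 0.0176).

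**Figure D3:**
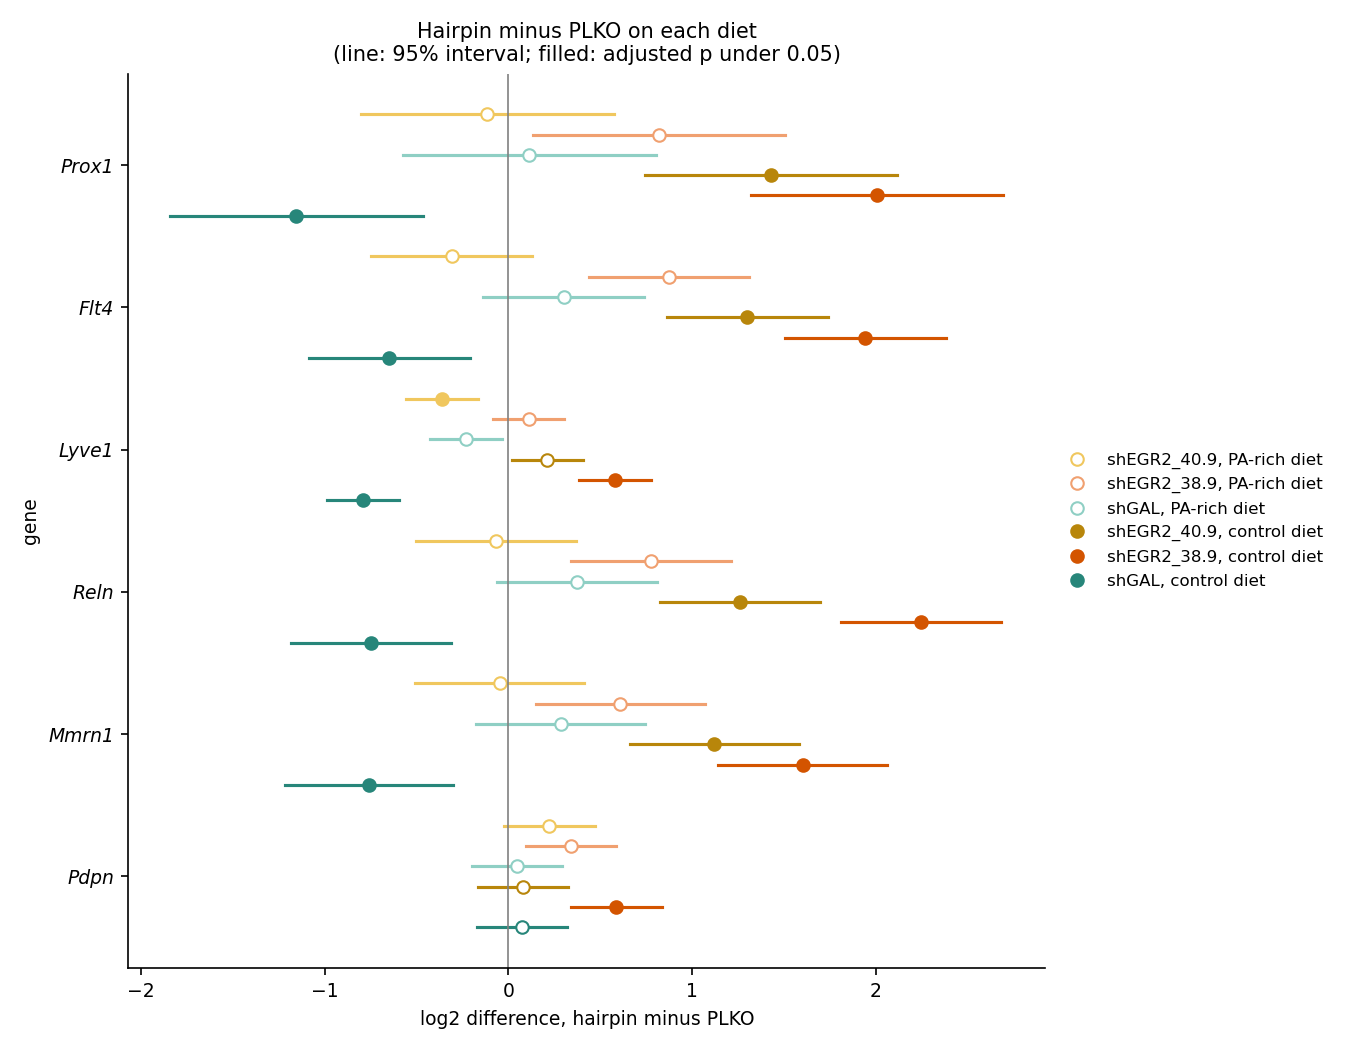
Log2 difference between each hairpin and PLKO (horizontal axis) for each gene, on the PA-rich diet (pale) and the control diet (dark); points are limma estimates, lines 95% intervals, and filled points have an adjusted p under 0.05. On the control diet the EGR2 hairpins lie right of 0 for all genes, and shGAL lies left of it for all but Pdpn. On the PA-rich diet 1 point of 18 is filled, that of Lyve1 with shEGR2_40.9.

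Prox1, Lyve1 and Mmrn1 had further probe sets. The other Prox1 probe sets gave diet effects of -2.34 (limma adjusted p = 7.50e-07) and -1.76 (limma adjusted p = 4.47e-05) with shEGR2_40.9, and of -2.67 (limma adjusted p = 2.29e-08) and -2.25 (limma adjusted p = 4.83e-07) with shEGR2_38.9. Each had the sign of the probe set used in 13 of 15 comparisons. Their means over the 24 arrays, 6.40 and 6.36, passed the filter only through the EGR2 hairpins on the control diet, the groups in which Prox1 was highest. In every other group, PLKO on the control diet included, their means lay below the filter level. Their falls are therefore no separate support. The other Lyve1 probe set gave -1.47 (limma adjusted p = 1.35e-06) with shEGR2_40.9 and -0.98 (limma adjusted p = 6.20e-05) with shEGR2_38.9, and had the same sign in 15 of 15. With PLKO its group means were 7.12 on the PA-rich diet and 7.83 on the control diet, with all PA-rich arrays lower. That step was wider than the -0.33 of the Lyve1 probe set used. The other Mmrn1 probe set lay below the filter level on every array, between 4.45 and 5.14, and was not tested.

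Among themselves the 5 genes other than Pdpn had Pearson correlations of 0.91 to 0.99 over the 24 arrays, which share groups and scan batches. After the group means were taken out, Prox1 and Mmrn1 still had 0.93, Prox1 and Flt4 0.91, and Lyve1 and Flt4 0.53. Within a group, arrays high in one of these genes were thus mostly high in the others: PLKO control-diet replicate 3 was the lowest of its group for all 6 genes, and shGAL control-diet replicate 2 the lowest for the 5. Pdpn had 0.51 to 0.63 with the 5 over all arrays and 0.15 to 0.41 after the group means.

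The other genes of the lymphatic pathway were followed by role. Of the growth ligands and the proteins that process them, 3 of 7 were above the filter level; Vegfc, Ccbe1, Adamts3 and Angpt1 were not. Angpt2, a ligand of the TIE2 receptor, fell on the PA-rich diet, with log2 changes of -1.91 with shEGR2_40.9 and -2.15 with shEGR2_38.9 (limma adjusted p = 4.40e-07 and 1.78e-08). Vegfd, a ligand of VEGFR-3, was just above the filter level, with a mean of 6.32, and changed past the threshold with neither. Of 10 receptors, 7 fell with shEGR2_40.9 and 7 with shEGR2_38.9, with medians of -1.33 and -1.54 where the medians of all genes were 0.03 and 0.07. The deepest were Calcrl, the receptor of adrenomedullin (-2.52 and -2.30), Itga9, an integrin subunit of lymphatic valves (-1.81 and -1.79), and Tie1 (-1.78 and -1.92). Calcrl had a mean of only 6.87 over all arrays, against 8.43 for Itga9 and 8.99 for Tie1. With falls of that size, its PA-rich arrays may lie near or below the filter level. Its group means are not given here, so whether it passed the filter only through the EGR2 hairpins on the control diet was not tested. With PLKO 0 of 10 passed, and with shGAL 1 did, Nrp2, a co-receptor of VEGFR-3 (-0.45, limma adjusted p = 0.026).

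Among the transcription factors, 6 of 8 were above the filter level, and 3 fell with shEGR2_40.9 and 4 with shEGR2_38.9. Nr2f2, which encodes COUP-TFII, a partner of PROX1, changed by -1.38 with shEGR2_40.9 and -1.81 with shEGR2_38.9 (limma adjusted p = 6.06e-06 and 4.57e-08). Sox18, which acts upstream of Prox1 in the embryo, changed by -0.64 with shEGR2_38.9 (limma adjusted p = 0.00011) and gave -0.26 with shEGR2_40.9 (limma adjusted p = 0.145). Foxc2, a factor of lymphatic valves, was below the filter level. Of 10 genes for surface, secreted and junction proteins above it, 6 fell with shEGR2_40.9 and 8 with shEGR2_38.9, among them Ackr2, a chemokine scavenger (-1.77 and -1.62), and Cldn5, a tight junction protein (-1.02 and -1.57). In these 2 lists 0 genes passed with PLKO and 0 with shGAL (limma).

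These changes were not limited to lymphatic genes. Of 17 genes expressed by endothelial cells of any kind, of which 7 also stand in the lymphatic lists, 16 fell with shEGR2_40.9 and 17 with shEGR2_38.9, with medians of -1.05 and -1.31, against -2.07 and -1.73 for the 6 lymphatic genes. Cdh5, the endothelial cadherin, gave -1.58 and -1.71, and Ecscr, an endothelial surface protein, -1.40 and -1.77. Fli1, also among the 17, had a mean of 6.31 over all arrays, just above the filter level. It may have passed the filter only through the EGR2 hairpins on the control diet, and its group means are not given here. Its fall is therefore no separate support, and the same may hold for other list genes close to that level. Of 9 genes more typical of blood vessels above the filter level, 3 and 5 fell, with medians of -0.51 and -0.62. They include Emcn (-1.42 and -1.74) and Cd34 (-1.64 and -1.78), both surface sialomucins. On the control diet 16 of the 17 pan-endothelial genes were higher than with PLKO with shEGR2_40.9 and 17 with shEGR2_38.9, where 7.19% and 11.2% of all genes were. With shGAL 0 of 17 passed there, where 17.0% of all genes did, with a median of -0.19. That of the 6 lymphatic genes was -0.75, and their calls other than that of Lyve1 were lost with the scan batch as a block. Whether the lists differ from each other was not tested.

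Markers of other cell types moved in part with the lymphatic genes. Of 12 macrophage markers 6 were above the filter level, and of these 3 fell with shEGR2_40.9 and 4 with shEGR2_38.9. Stab1, among the 6, also stands in the lymphatic list of surface, secreted and junction genes. Mrc1, a mannose receptor of macrophages and of lymphatic endothelium, changed by -2.35 and -2.26 (limma adjusted p = 9.20e-09 and 3.28e-09), and by -0.70 with PLKO (limma adjusted p = 0.0341). Csf1r, which macrophages need, gave 0.11 and 0.01, not past the threshold, and Adgre1, C1qa, C1qb, Cd163, Folr2 and Timd4 were below the filter level. Relative to PLKO on the control diet, the mean of the 6 macrophage markers per array lay at -0.27 to -0.15 on the PA-rich diet, against 0.39 to 0.57 on the control diet, with shEGR2_40.9. With shEGR2_38.9 it lay at -0.06 to 0.08, against 0.73 to 0.83. The part of macrophages in the values of Lyve1 was not tested.

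Fibroblast markers, with 5 of 10 above the filter level and Pdgfra, Col1a2, Lum, Dpt and Fap below it, had 2 lower with shEGR2_40.9 and 1 lower and 1 higher with shEGR2_38.9. Thy1, which encodes a surface glycoprotein, fell with both, by log2 changes of -0.50 and -0.91 (limma adjusted p = 0.000128 and 2.26e-08). It also stands in the lymphatic list of surface, secreted and junction genes. Dcn, the gene of the matrix proteoglycan decorin, gave -0.43 with shEGR2_40.9 and 0.44 with shEGR2_38.9, both past the threshold in opposite directions. The collagen genes Col1a1 (-1.63 and -1.52) and Col3a1 (-2.90 and -1.39) had larger differences that did not pass (limma adjusted p = 0.0699 to 0.329). The mean of the 5 fibroblast markers per array, on the scale used for the macrophage list, lay at -0.67 to 0.25 on the PA-rich diet, against 0.65 to 1.21 on the control diet, with shEGR2_40.9, so that the diets were apart as for the lymphatic genes. With shEGR2_38.9 it lay at -0.38 to 0.22, against 0.06 to 1.25, and with PLKO at -0.68 to 1.01, against -0.56 to 0.39, both overlapping. The part of fibroblasts in the values of the lymphatic genes was not tested. Basal keratinocyte markers had 0 of 7 past the threshold with either EGR2 hairpin, Schwann and glial markers 0 lower and 1 higher of 5 with each, neuron markers 0 of 4, and platelet markers 0 of 2. Of all genes, 8.95% passed in either direction with shEGR2_40.9 and 22.1% with shEGR2_38.9, and 3.73% and 13.8% were higher. Lists this small would hold few passing genes at these shares, so the counts do not show that these cell types were unchanged. The mean of the keratinocyte markers ran from 0.03 to 0.06 on the PA-rich diet, against -0.05 to 0.03 on the control diet, with shEGR2_40.9, and that of the Schwann and glial markers from -0.04 to 0.04, against -0.08 to 0.10. With shEGR2_38.9 the keratinocyte markers ran from -0.02 to 0.03, against -0.38 to -0.01, where the lowest value is that of the array that stood apart. Of the platelet genes, listed because platelets store multimerin 1, Pf4 and Ppbp were below the filter level.

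**Figure D4:**
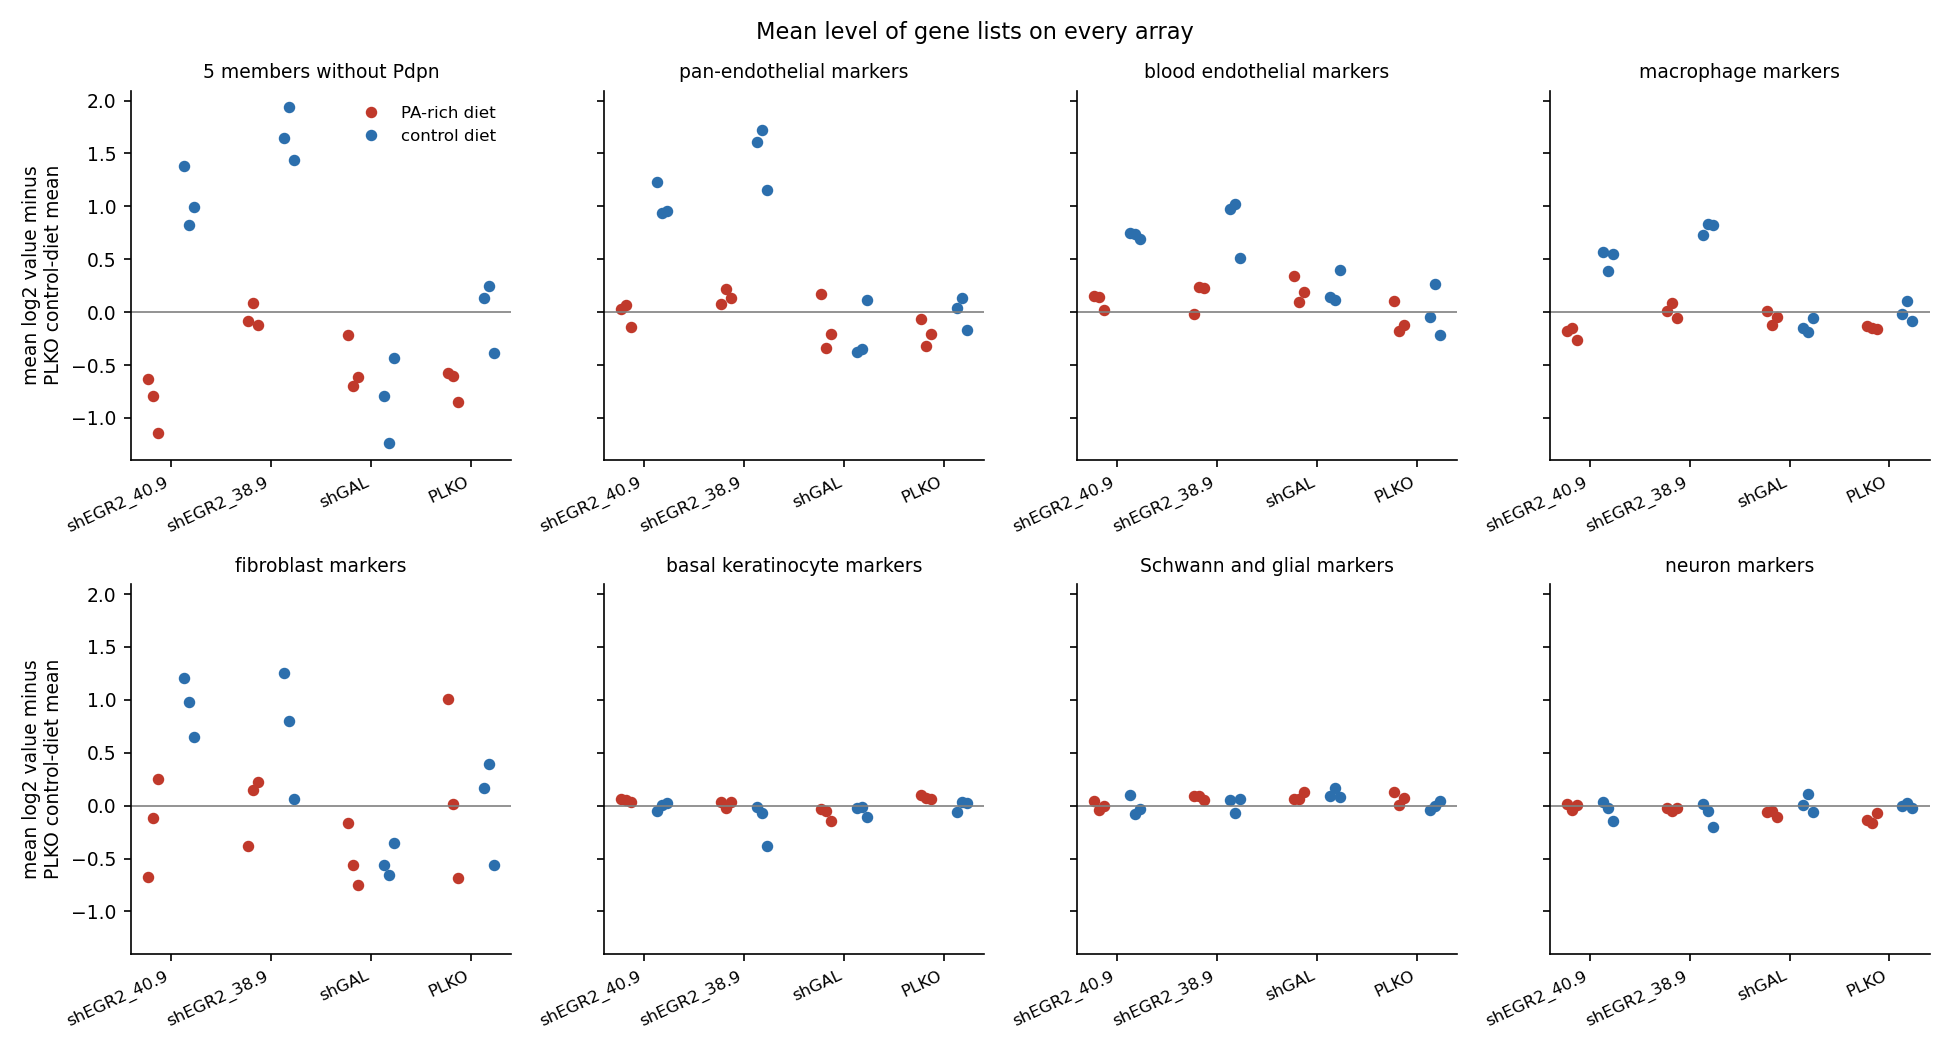
Mean log2 value of 8 gene lists on each array minus the mean of the PLKO control-diet arrays (vertical axis), by hairpin and diet; each point is 1 array. The 5 genes other than Pdpn, the pan-endothelial, the blood endothelial and the macrophage lists stand highest on the control-diet arrays of the EGR2 hairpins, and the fibroblast list has its highest means there with a wider spread, while the keratinocyte, Schwann and neuron lists stay between -0.38 and 0.17.

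The genes whose profile over the 24 arrays was most like that of the 6 together, by Pearson correlation, were Mrc1 (0.98), Tie1, an endothelial receptor (0.97), and Grb10, a growth factor receptor adaptor (0.97), followed by Nid1, Rbpms, Scn3a, Zfp521, Ecscr, Timp2 and Cdh5, the last at 0.97. For single genes the nearest were Selenop for Prox1 (0.97), Hoxd9 for Flt4 (0.98), Mrc1 for Lyve1 (0.92) and for Reln (0.98), Plpp1 for Mmrn1 (0.98) and Tln1, the gene of the integrin adaptor talin, for Pdpn (0.84). All arrays share the 8 groups, so these values describe the group pattern and carry no test.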

How the data were processed

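Per the labels' protocols, amplified cDNA was fragmented and labelled with biotin; the arrays were Affymetrix mouse arrays of perfect-match probes. Per the submitters' processing notes, which name RMA and affy without a version, the authors deposited log2 values. RMA corrects background, quantile-normalizes arrays and summarises each probe set, and tends to compress fold changes. Of 45141 probe sets, 28898 had 1 gene symbol, 551 several and 15692 none, and 99.28% of the first matched the gene table by Entrez identifier. The probe set with the highest mean stood for a gene. Genes whose mean lay below the 40th percentile (6.27) were left out, which kept 11844 of 17097. Arrays have no count depth, and their small number is among the limits on precision.

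All 15 comparisons came from 1 limma 3.58.1 model (R 4.3.3) of the 8 group means over 24 arrays, with moderated two-sided tests, 16 residual degrees of freedom and Benjamini-Hochberg adjustment over 11844 genes within each comparison, at a threshold of 0.05; a second model ran over 18937 probe sets. A replicate number within a hairpin marks a scan batch that holds both diets, so the numbers pair the arrays by batch. Residuals of same-number arrays correlated at -0.03 to 0.24 (7 of 12 above 0.1), other numbers on average at -0.08 to -0.02. Each hairpin shared 1 scan batch with PLKO. On simulated data the procedure recovered most changes of 1 log2 unit, placed in the PLKO PA-rich group only. These data had independent normal noise and no scan batches, and recovery of smaller changes is not given here. The alternatives were this batch as a block, other dim filters, the mean of probe sets, renewed quantile normalization, only the arrays compared, array weights, a mean-variance trend and each array left out. The genes and the 12 lists were chosen with earlier results of these data known. Beyond the 6 genes, the text names list genes past the threshold in a diet effect, at most 4 a list by size, markers below the filter level, and the most correlated genes; Nrp2, Vegfd, Csf1r, Col1a1 and Col3a1 were named after their values were seen.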

Additional observations from a re-analysis of the deposited data

Results flagged for a closer look

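The diet effects that differed between hairpins by a direct test call for a second look. With shEGR2_40.9 minus PLKO the differences of the diet effect were -0.57 for Lyve1, -1.61 for Flt4, -1.33 for Reln and -1.17 for Mmrn1. With shEGR2_38.9 minus PLKO they were -0.47 for Lyve1, -1.07 for Flt4, -1.47 for Reln and -0.99 for Mmrn1. With shGAL minus PLKO it was 0.56 for Lyve1. With the mean of the EGR2 hairpins minus shGAL they were -2.63 for Prox1, -1.08 for Lyve1, -2.29 for Flt4, -2.52 for Reln and -2.12 for Mmrn1. All are limma interaction contrasts on the log2 scale with an adjusted p under 0.05.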

How the results depend on the processing

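Counts are of the 6 genes past the threshold unless said otherwise. The shares of all genes passing in these settings are not given here, so a changed count may go with a general gain or loss of calls. With the scan batch as a replicate block, the block changed the diet effect with PLKO to 3 genes and the difference of diet effects between shGAL and PLKO to 4. On the control diet the same replicate block gave 1 gene for shGAL minus PLKO, and on the PA-rich diet 0 for shEGR2_40.9, 2 for shEGR2_38.9 and 2 for shGAL, each minus PLKO. The diet effect with PLKO gave 1 with the filter at the 60th percentile, 1 with the mean of probe sets and 2 with array weights. The difference between shGAL and PLKO gave 0 after renewed quantile normalization, 0 with only the arrays compared and 4 with array weights. With only the arrays compared, shGAL minus PLKO on the control diet gave 1 and shEGR2_38.9 minus PLKO on the PA-rich diet 3, or 4 with array weights. Leaving out 1 array at a time gave 0 to 2 for the diet effect with PLKO, 2 to 5 and 1 to 5 for the differences of shEGR2_40.9 and shEGR2_38.9 from PLKO, 0 to 4 for that of shGAL and 0 to 1 between the EGR2 hairpins. On the control diet it gave 1 to 5 for shGAL, and on the PA-rich diet 0 to 1 for shEGR2_40.9 and 0 to 1 for shEGR2_38.9. Among member probe sets, 64 calls over all comparisons became 42 with the filter at the 60th percentile, which tests fewer of them. The block moved no other count by over 1.5 times. The cause of the other changes was not tested.

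Over all single-gene values and settings, 2710 of 2880 kept their side of the threshold and direction, 32, of which 17 were of Pdpn, changed sign without passing in either setting, 81 lost the call, 57 gained one and 0 reversed a called value. The falls of Prox1, Flt4, Lyve1, Reln and Mmrn1 with each EGR2 hairpin kept their calls in all 32 settings. The arrays are technical replicates of an unstated number of animals, which limits all p-values alike.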
